A study of Mus musculus with 6 samples.

Results

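Kupffer cell and macrophage genes were measured in RNA from the endothelial cells of the liver sinusoids (LSECs), whose pores let plasma reach the hepatocytes. The group held 35 genes, listed by name for their known expression in resident liver macrophages and in macrophages generally, and all 35 were found among the 23472 named genes of the deposited table. Of the 6 libraries, 3 came from RBPjcKO mice, in which Rbpj, the gene of the DNA-binding protein of Notch signalling, was conditionally knocked out in endothelium. The other 3 libraries came from wild-type mice. All mice were C57BL/6, were 7 to 8 weeks old and had received tamoxifen intraperitoneally, the wild-type mice included. The Cre driver and the way the cells were purified are not given in the sources here. Separate animals for the 3 libraries of a group are not stated in the labels. The p-values thus reflect the scatter among these libraries, which may be technical.

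Kupffer cells are the resident macrophages of the liver. They lie in the sinusoids against the endothelium and take up particles, dying cells and old erythrocytes from the blood. Their identity is known to depend on signals from neighbouring cells, among them Notch ligands, factors of the TGF-beta family and colony stimulating factor 1, while complement C1q, Fc receptors, lysozyme and CD68 are shared by macrophages of many tissues. Several of the 35 genes, such as the receptor kinase gene Axl, the iron exporter gene Slc40a1 and Sirpa, the gene of the CD47 receptor, are also known from cells other than macrophages. In bulk RNA, fewer cells of a type and less RNA of a gene per cell cannot be told apart. The RNA of the 35 genes also cannot be assigned to LSECs or to macrophages within the preparation. Below, RBPjcKO and wild-type cells mean all cells of the libraries of that genotype, whether or not Rbpj was deleted in them.

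The named genes received between 30958761 and 40459702 counts per library. Rbpj itself had 17.0, 19.8 and 17.6 CPM (counts scaled to library size, TMM-adjusted) in RBPjcKO cells, against 41.6, 46.9 and 45.5 CPM in wild-type cells, with adjusted p = 0.000982 in edgeR. The counts span the entire gene, any undeleted stretch included. The summed level of 13 LSEC markers was 29241 to 34370 CPM in RBPjcKO libraries and 34532 to 40101 CPM in wild-type libraries. Values of the 3 libraries of a group are given below in the order of replicates 1, 2 and 3, and errors of group means are SDs.

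The promoters of 3 genes are shown because they stand for different results. Mertk was called lower in RBPjcKO cells, Clec4f is a Kupffer cell gene that was not called, and C1qc belongs to the complement genes against which other genes are set further on. Each sequence is the 250 bases before the RefSeq transcription start (GRCm38.p6), written 5′ to 3′ on the strand of the gene, with motif matches in capitals.
Mertk, plus strand, chr2:128698665-128698914: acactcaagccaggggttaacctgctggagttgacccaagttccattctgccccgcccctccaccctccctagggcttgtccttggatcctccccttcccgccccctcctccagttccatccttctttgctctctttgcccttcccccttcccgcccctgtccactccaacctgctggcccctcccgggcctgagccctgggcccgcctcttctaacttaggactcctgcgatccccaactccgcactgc
Clec4f, minus strand, chr6:83656117-83656366: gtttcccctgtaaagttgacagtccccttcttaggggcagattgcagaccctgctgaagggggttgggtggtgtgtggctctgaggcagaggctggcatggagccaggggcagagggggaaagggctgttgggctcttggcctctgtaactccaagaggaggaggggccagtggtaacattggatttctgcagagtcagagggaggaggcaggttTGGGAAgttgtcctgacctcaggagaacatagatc
C1qc, minus strand, chr4:136892915-136893164: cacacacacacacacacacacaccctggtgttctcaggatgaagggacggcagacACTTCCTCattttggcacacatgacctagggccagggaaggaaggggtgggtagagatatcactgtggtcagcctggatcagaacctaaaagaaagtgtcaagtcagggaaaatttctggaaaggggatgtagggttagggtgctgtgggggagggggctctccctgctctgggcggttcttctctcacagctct
The capitals in Clec4f are TGGGAA, the core of the motif of RBPJ, and those in C1qc are ACTTCCTC, which is GAGGAAGT, a motif of the PU.1 type, on the other strand. No searched motif was found in the Mertk window. The RefSeq start of Mertk lay 82 bases upstream of the start in the deposited table.

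RefSeq windows reaching from 250 bases before to 50 bases after the start were matched for 28 of the 35 genes, and 4 motifs were searched on both strands. No window was matched for Slc40a1, Sirpa, Emr1, Csf1r, C1qa, Tyrobp or Cd14, so these were not searched. Slc40a1 and Sirpa are among the genes called below. TGGGAA was found in 8 of the 28 genes (28.57%), against 28.31% of all 27025 genes with a window. GAGGAAGT was found in 2 of 28 (7.14%), against 3.69% of all genes. TTGCNNAA, of the C/EBP type, was found in 3 of 28 (10.71%), against 12.2%, and CACGTG, an E-box, in 0 of 28, against 8.09%. The share of genes with TGGGAA was thus close to that among all genes. A match in these windows is a description of letters and not a site.

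The 35 genes were compared between RBPjcKO and wild-type cells within one fit over 14869 genes, and all 35 passed the filter on low counts. Mertk, Slc40a1 and Aif1 were called lower in RBPjcKO cells and Sirpa was called higher, by 2.10-fold, 2.46-fold, 2.38-fold and 1.66-fold. A call means a p-value under 0.05 in the quasi-likelihood test of edgeR after Benjamini-Hochberg adjustment over all genes tested. The other 31 genes were not called, although 30 of them had a log2 fold change below 0. Called genes thus made up 11.4% of the list, against 16.7% of all genes tested, with 8.57% called lower, against 7.74% of all genes, and 2.86% called higher, against 9% of all genes. Calls in the list stood near or under the share of calls across the transcriptome. By DESeq2, 9 genes were called lower (against 11.5% of all genes), namely Emr1, Cfp, Lyz1, Mpeg1, Csf1r and Ly86 besides the first 3, and without RBPjcKO replicate 1 the edgeR count was 5 (against 4.47% of all genes), with Vsig4 and Cd163 added.

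The direction of the fold changes was less evenly divided than the calls. The log2 fold change was below 0 for 33 of the 35 genes (94.3%), against 50.5% of all genes, and the median was -0.70, against -0.005 for all genes tested. The genes vary together between libraries and are not independent of each other, so the 33 genes are not 33 measurements of the difference. A single direction was not particular to this list. Among lists given further on, 11 of 11 hepatocyte and 9 of 9 neutrophil genes lay above 0. All 9 T and NK cell genes and all 6 cholangiocyte genes lay below 0. Other lists were divided, such as the leukocyte and phagocyte core, with 8 genes below 0 and 17 above. All 3 RBPjcKO libraries lay below all 3 wild-type libraries for 5 genes (14.3%), which were Emr1, Slc40a1, Mertk, Lyz1 and Aif1, against 19.6% of all genes. Sirpa was the gene with all 3 RBPjcKO libraries above the wild-type libraries, a pattern found for 20.7% of all genes, and the groups overlapped for the remaining 29 genes. The summed level of the 35 genes was 4021, 2095 and 3254 CPM in RBPjcKO libraries, against 5270.2, 3437 and 5679.5 CPM in wild-type libraries. The groups overlapped in this sum, since RBPjcKO replicate 1 stood above wild-type replicate 2, and the ratio of the group means was 0.651.

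**Figure D1:**
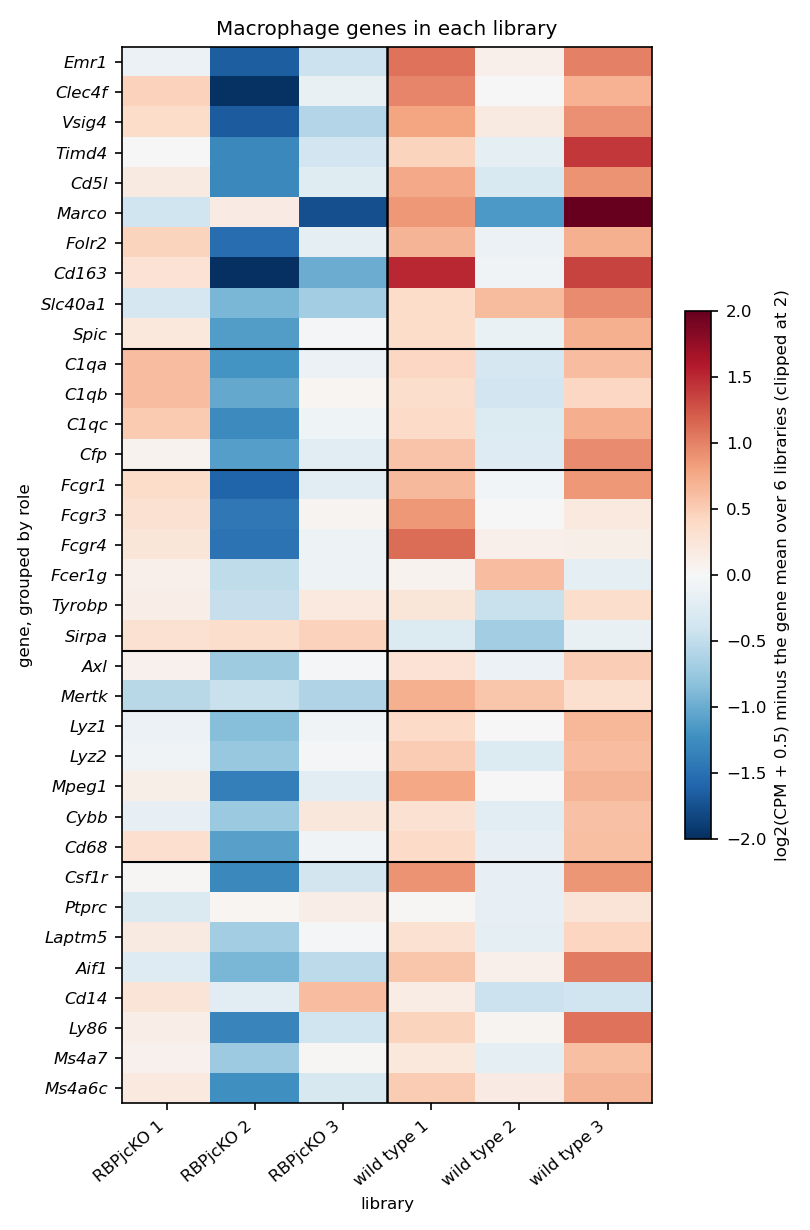
Level of each of the 35 genes (rows, grouped by role) in each library (columns, RBPjcKO left of wild type), as log2(CPM + 0.5) minus the mean of the gene over the 6 libraries, with colours ending at a difference of 2. The RBPjcKO replicate 2 column is the lowest of the 6 for 30 of the 35 genes.

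The libraries differed among themselves in these genes within each genotype. RBPjcKO replicate 2 was the lowest of the 6 libraries for 30 of the 35 genes, against 14.9% of all genes. It held under 0.7 of the mean of RBPjcKO replicates 1 and 3 for 30 genes, with a median of 0.417, whereas 11.6% of all genes fell under 0.7 and their median was 0.984. Wild-type replicate 2 likewise held under 0.7 of the mean of wild-type replicates 1 and 3 for 28 genes, with a median of 0.594, against 7.87% of all genes with a median of 1.005. For 27 genes both libraries were low in this way, which can hold for at most 7.87% of all genes. Mertk, Ptprc, Sirpa and Slc40a1 were not low in either library by this measure. The median log2 fold change of the 35 genes was -1.07 without RBPjcKO replicate 1 and -0.42 without RBPjcKO replicate 2.

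The genes of Kupffer cell identity and scavenging were 10, and all 10 had a log2 fold change below 0, with a median of -1.14. Slc40a1 was the gene of this group that passed the test. It encodes ferroportin, the exporter that returns iron from macrophages to the blood (chromosome 1, 45908070 to 45925594, GRCm38). Slc40a1 had 226, 152 and 176 CPM in RBPjcKO cells, against 369, 442 and 553 CPM in wild-type cells. The highest RBPjcKO library lay below the lowest wild-type library. The log2 fold change was -1.30 (SE 0.19), with edgeR adjusted p = 0.00671, and Slc40a1 was called in 6 of 6 fits that left out a library.

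Emr1, which encodes the surface protein F4/80 used to recognise mouse macrophages, had 38.7, 13.1 and 31.1 CPM in RBPjcKO cells, against 89.5, 45.1 and 85.5 CPM in wild-type cells. The groups did not overlap, and RBPjcKO replicate 1 and wild-type replicate 2 were the nearest libraries across them. The log2 fold change was -1.41 (SE 0.41), with edgeR adjusted p = 0.0538, just over the threshold. Emr1 was called in 3 of 8 other settings of tool, scaling, filter and entries, with adjusted p from 0.0362 by DESeq2 to 0.0599 by the robust fit of edgeR. It was called in 0 of 6 edgeR fits that left out a library, with adjusted p from 0.051 to 0.132.

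Cd163 and Marco had the lowest log2 fold changes of the list, with a wide spread between libraries, and neither was called. Cd163, the receptor for haemoglobin bound to haptoglobin, had 48.9, 9.04 and 19.9 CPM in RBPjcKO cells, against 115, 38.3 and 103 CPM in wild-type cells. RBPjcKO replicate 1 overlapped the wild-type range (log2 fold change -1.72, SE 0.63, edgeR adjusted p = 0.0977). Marco, a scavenger receptor for bacteria and particles, had 44.9, 66.3 and 17.1 CPM in RBPjcKO cells, against 108, 26.5 and 289 CPM in wild-type cells. Wild-type libraries of Marco differed from each other more than the group means did, and the log2 fold change of -1.72 carried an SE of 0.81. Marco did not follow the low level of RBPjcKO replicate 2 that most of the list showed, and that library was the highest RBPjcKO library for it.

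Vsig4, the complement receptor CRIg that captures opsonised bacteria in the liver, had 59.0, 14.1 and 30.4 CPM in RBPjcKO cells, against 79.2, 52.1 and 86.9 CPM in wild-type cells. Timd4, the phosphatidylserine receptor TIM-4 of resident Kupffer cells, had 23.8, 9.46 and 18.2 CPM in RBPjcKO cells, against 32.6, 21.2 and 64.6 CPM in wild-type cells. In both genes RBPjcKO replicate 1 lay above wild-type replicate 2, and the adjusted p was 0.145 for Vsig4 and 0.109 for Timd4 by edgeR. Folr2, a folate receptor of resident macrophages, had 39.6, 9.79 and 25.2 CPM in RBPjcKO cells, against 46.4, 26.6 and 47.8 CPM in wild-type cells, and its groups overlapped (edgeR adjusted p = 0.318).

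Clec4f, a galactose-binding lectin found on mouse Kupffer cells, had 394, 72.2 and 257 CPM in RBPjcKO cells, against 559, 285 and 461 CPM in wild-type cells. RBPjcKO replicate 1 lay inside the wild-type range, and the log2 fold change of -0.85 (SE 0.54) gave edgeR adjusted p = 0.301. Cd5l, a secreted scavenger protein known as AIM, had 400.4, 145 and 299.8 CPM in RBPjcKO cells, against 598, 285 and 656 CPM in wild-type cells (edgeR adjusted p = 0.182), and RBPjcKO replicates 1 and 3 lay above wild-type replicate 2. Spic, the transcription factor of red pulp and other iron-recycling macrophages, had 5.70, 1.97 and 4.72 CPM in RBPjcKO cells, against 6.41, 4.39 and 8.29 CPM in wild-type cells (edgeR adjusted p = 0.313). Spic was the least abundant gene of this group, and its groups overlapped.

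**Figure D2:**
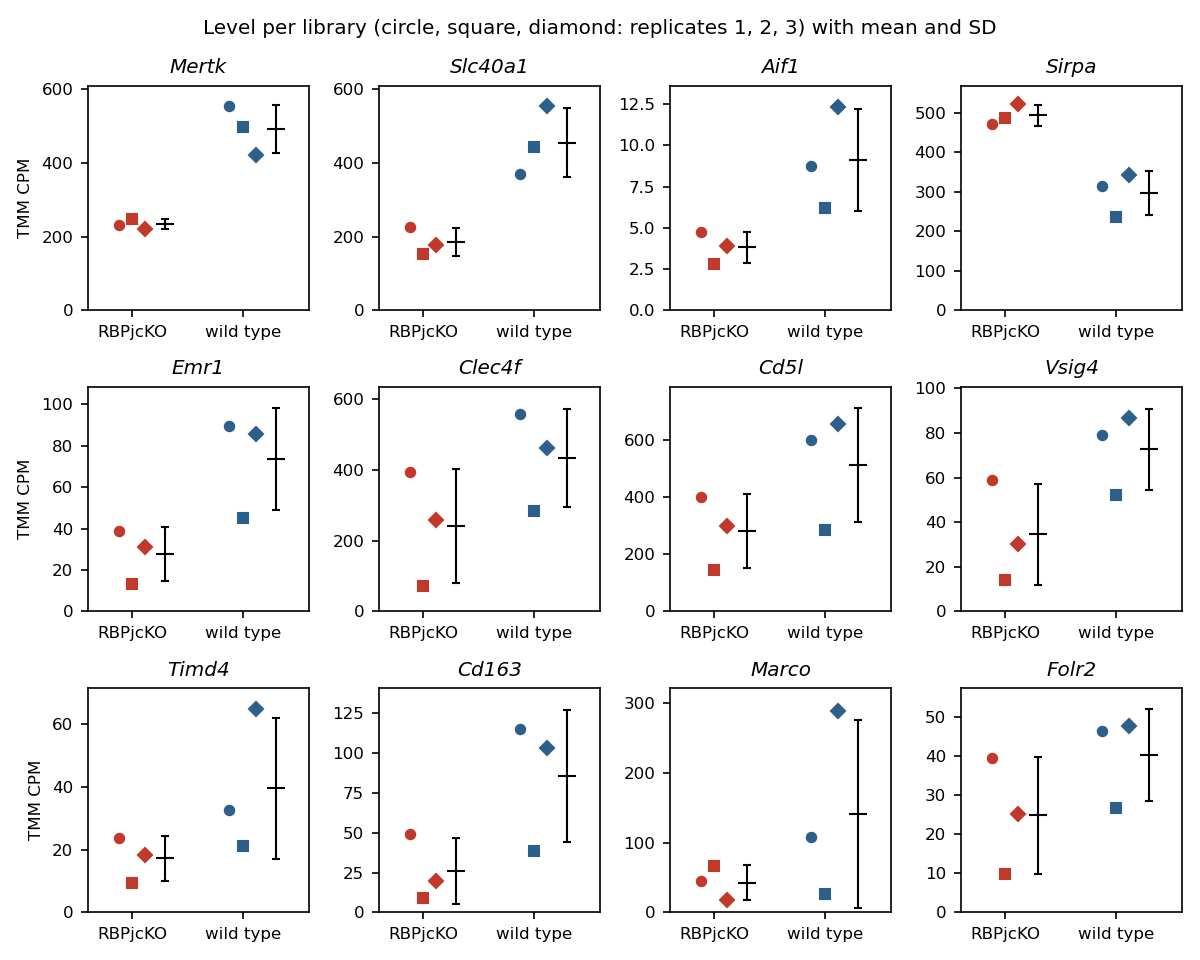
Level of selected genes in each library (CPM, TMM-scaled, linear axis from 0), with RBPjcKO left of wild type. Symbols stand for the replicates, and bars give the mean and SD of 3 libraries. Mertk and Slc40a1 are separated between the groups, while Clec4f overlaps.

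The 4 complement genes had none called and a median log2 fold change of -0.39. The C1q genes C1qa, C1qb and C1qc encode the recognition molecule of the classical pathway, which macrophages secrete. C1qa had 310.1, 87.3 and 187 CPM in RBPjcKO cells, against 268, 160.2 and 309 CPM in wild-type cells. C1qb had 296, 94.3 and 198 CPM in RBPjcKO cells, against 245, 148 and 258 CPM in wild-type cells. RBPjcKO replicate 1 had the highest C1qa and C1qb level of all 6 libraries, and RBPjcKO replicate 2 the lowest. Their log2 fold changes were -0.34 (SE 0.43) and -0.14 (SE 0.39), and both turned positive without RBPjcKO replicate 2, at 0.015 and 0.19. C1qc had a log2 fold change of -0.44 (SE 0.43, edgeR adjusted p = 0.497). Cfp, which encodes properdin of the alternative pathway, had -0.85 (SE 0.36) and an edgeR adjusted p of 0.145. Cfp, like Cybb, lies within the listed spans of several predicted genes in the table, so its counts could include reads counted for those.

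In the group of Fc receptors, their adaptors and Sirpa, only Sirpa rose. It encodes the receptor for CD47, the signal that restrains phagocytosis (chromosome 2, 129592839 to 129632228, GRCm38). Sirpa had 470.4, 488 and 521 CPM in RBPjcKO cells, against 315, 236 and 341 CPM in wild-type cells. The groups did not overlap, and the log2 fold change was 0.73 (SE 0.14) with edgeR adjusted p = 0.0166. It was called in 6 of 6 fits that left out a library. The other 5 genes of the group had log2 fold changes from -0.85 to -0.11 and none was called. The activating Fc receptor genes Fcgr1, Fcgr3 and Fcgr4 had -0.85, -0.60 and -0.83, and the adaptors Fcer1g and Tyrobp, which carry signals of activating receptors, had -0.35 and -0.11. Tyrobp had 29.7, 19.6 and 31.0 CPM in RBPjcKO cells, against 32.0, 19.8 and 34.5 CPM in wild-type cells. Fcer1g had 36.6, 23.7 and 31.7 CPM in RBPjcKO cells, against 35.6, 52.2 and 29.7 CPM in wild-type cells. Fcer1g was highest in wild-type replicate 2, a library that was low for most of the list.

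The TAM receptors Axl and Mertk are receptor kinases for bridging ligands on dying cells, Gas6 for both and protein S for Mertk. Mertk, the main engulfment receptor of many tissue macrophages (chromosome 2, 128698997 to 128802188, GRCm38), fell. It had 231, 249 and 222 CPM in RBPjcKO cells, against 554, 498 and 423 CPM in wild-type cells. The RBPjcKO libraries lay close together, at 234 ± 13.6 CPM, against 492 ± 65.8 CPM in wild-type libraries (SD, n = 3 each). The log2 fold change was -1.07 (SE 0.12), with edgeR adjusted p = 0.00272, the smallest of the 35 genes. Mertk was called in 6 of 6 fits that left out a library. It did not follow most of the list in replicate 2, which held 1.10 of the mean of the other RBPjcKO libraries (list median 0.417). In wild-type cells this ratio was 1.02 (list median 0.594). The cell type in which Mertk fell was not tested. Axl had 122, 70.1 and 111 CPM in RBPjcKO cells, against 139.8, 106 and 162 CPM in wild-type cells, and was not called (log2 fold change -0.43, SE 0.23, edgeR adjusted p = 0.227). The difference between the 2 receptors was not tested.

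The lysozyme, oxidase, pore and lysosome genes had none called, with a median of -0.58. Lyz2, the lysozyme gene of macrophages, had 206, 128 and 214 CPM in RBPjcKO cells, against 309, 179 and 331 CPM in wild-type cells. Lyz1, the near-identical lysozyme gene beside it, had 16.1, 9.49 and 16.6 CPM in RBPjcKO cells, against 23.1, 17.6 and 28.0 CPM in wild-type cells. The groups did not overlap for Lyz1 (edgeR adjusted p = 0.0938), but reads shared by the 2 copies could have been split by the counting, so both values are uncertain. Mpeg1, the gene of the pore-forming protein perforin-2, had 151, 53.5 and 120.1 CPM in RBPjcKO cells, against 239.8, 141 and 224 CPM in wild-type cells (log2 fold change -0.90, SE 0.37, edgeR adjusted p = 0.131). Cd68, a lysosomal protein gene, and Cybb, the catalytic subunit gene of the phagocyte NADPH oxidase, had log2 fold changes of -0.48 and -0.44 and were not called.

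The receptor and leukocyte surface genes numbered 8. Aif1, which encodes the actin-binding protein Iba1 (chromosome 17, 35170992 to 35176001, GRCm38), fell. It had 4.74, 2.81 and 3.88 CPM in RBPjcKO cells, against 8.73, 6.21 and 12.3 CPM in wild-type cells. The groups did not overlap, the counts were 113 to 183 in RBPjcKO libraries and 232 to 390 in wild-type libraries, and the log2 fold change was -1.25 (SE 0.30, edgeR adjusted p = 0.0319). Aif1 was called in 2 of 6 fits that left out a library, and its largest adjusted p among them was 0.0855 by edgeR without RBPjcKO replicate 2. Csf1r, the receptor for colony stimulating factor 1, had 188, 75.2 and 144 CPM in RBPjcKO cells, against 345, 164 and 340.4 CPM in wild-type cells. RBPjcKO replicate 1 stood above wild-type replicate 2 for Csf1r, and the log2 fold change of -1.06 (SE 0.38) gave edgeR adjusted p = 0.0944.

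Cd14, the lipopolysaccharide co-receptor, was the other gene besides Sirpa with a log2 fold change above 0. It had 70.2, 50.7 and 90.3 CPM in RBPjcKO cells, against 65.0, 43.3 and 44.3 CPM in wild-type cells, and was not called (0.47, SE 0.24, edgeR adjusted p = 0.201). Ptprc, which encodes the pan-leukocyte protein CD45, had 23.1, 29.2 and 31.5 CPM in RBPjcKO cells, against 29.1, 25.5 and 34.0 CPM in wild-type cells. Its libraries overlapped with a log2 fold change of -0.08 (SE 0.15, edgeR adjusted p = 0.748). Laptm5, Ly86, Ms4a7 and Ms4a6c had log2 fold changes of -0.35, -1.06, -0.61 and -0.86 and were not called. Ms4a7 was the lowest of the 35 genes, with 15 to 40 counts in RBPjcKO libraries and 29 to 54 in wild-type libraries.

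**Figure D3:**
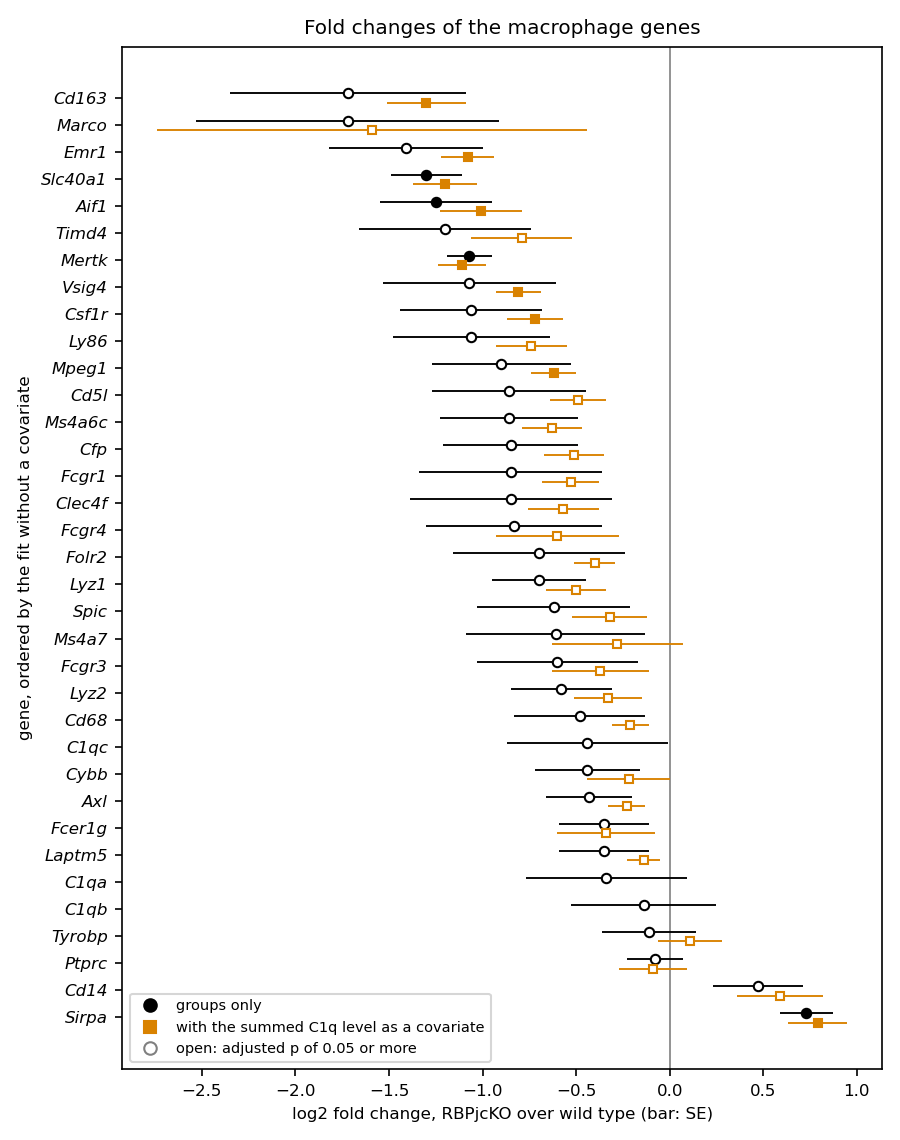
Log2 fold change of RBPjcKO over wild type for each of the 35 genes, with SE bars, without a covariate and with the summed C1q level as a covariate. Filled symbols mark an adjusted p under 0.05. The fold changes lie below 0 for 33 genes without the covariate, and Sirpa lies above 0 in both fits.

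Levels were compared between genes as RPKM, which divides counts by gene length. In RBPjcKO cells C1qb had the highest mean RPKM, 153, followed by C1qa with 148, Lyz2 with 143 and C1qc with 131. In wild-type cells Lyz2 was highest with 215, followed by Cd5l with 209.8, C1qa with 189.7 and C1qc with 181. Neighbours in these orders lay within their SDs, which were 77.0 RPKM for C1qb in RBPjcKO cells and 62.3 RPKM for Lyz2 in wild-type cells. Sirpa ranked 6 by mean RPKM in RBPjcKO cells and 11 in wild-type cells, and Marco ranked 20 in RBPjcKO cells and 10 in wild-type cells. Ms4a7 ranked 35 in both genotypes, with 0.383 RPKM in RBPjcKO cells and 0.594 RPKM in wild-type cells.

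**Figure D4:**
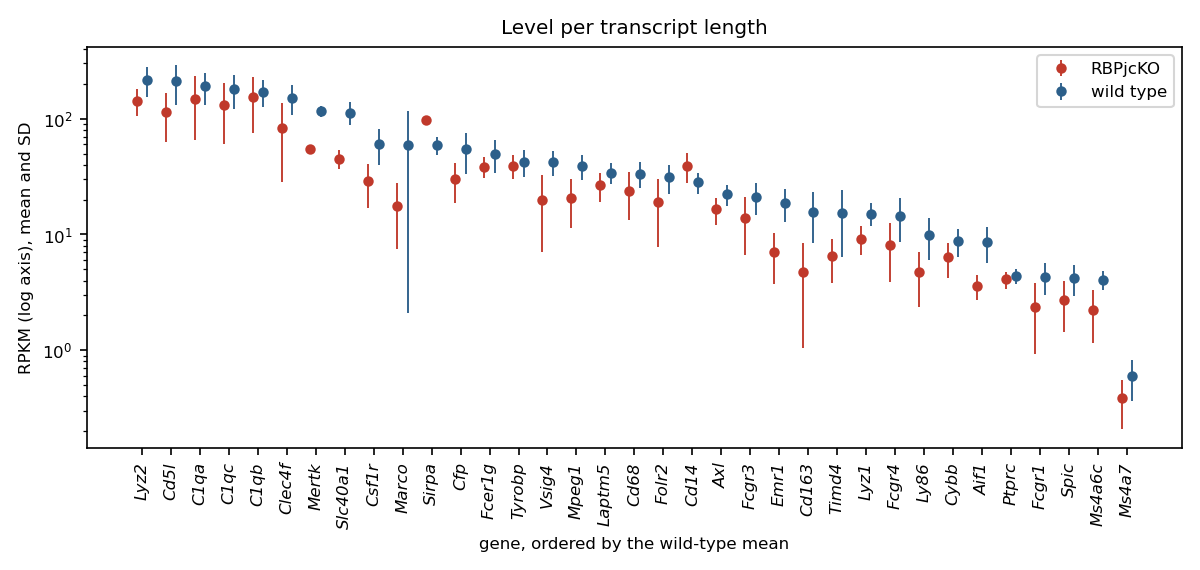
Mean RPKM and SD (log axis) of the 35 genes in RBPjcKO and wild-type cells, ordered by the wild-type mean. Lyz2 leads in wild-type cells at 215 RPKM and Ms4a7 is lowest at 0.594 RPKM.

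Because the C1q genes had their low values in the same libraries as most of the list and none of the 3 was called, the other 32 genes were also set against the summed C1q level of the same library. This comparison was chosen after the values were seen. The log2 fold changes of C1qa, C1qb and C1qc were -0.34, -0.14 and -0.44, against a list median of -0.70. A gene near the list median thus stands lower in RBPjcKO libraries when set against C1q, by the choice of reference. The summed C1q level was 866, 256 and 554 CPM in RBPjcKO libraries, against 749.7, 458 and 864 CPM in wild-type libraries. Relative to it, 15 genes had all RBPjcKO libraries below all wild-type libraries, 1 had them all above and 16 overlapped. Genes of the reference itself also separated on this scale, by small shifts. C1qb lay all above, at 34.2% to 36.8% in RBPjcKO libraries, against 29.8% to 32.7% in wild-type libraries. C1qc lay all below, at 29.1% to 30.5%, against 31.5% to 34.4%, and C1qa overlapped. Across all genes 1.16% lay all below and 5.29% all above, but most genes do not vary with C1q between libraries as these do, so that background is not matched. Emr1 reached 4.47%, 5.13% and 5.61% of the summed C1q level in RBPjcKO libraries, against 11.9%, 9.86% and 9.90% in wild-type libraries. Cd163 reached 5.65%, 3.53% and 3.58% in RBPjcKO libraries, against 15.3%, 8.36% and 11.9% in wild-type libraries. Vsig4 reached 6.82%, 5.51% and 5.49% in RBPjcKO libraries, against 10.6%, 11.4% and 10.1% in wild-type libraries. For these 3 genes the SD within each genotype was a smaller part of the mean on this scale than in CPM, and the groups were separated. Mertk and Slc40a1, separated in CPM, overlapped on this scale. Mertk reached 26.6%, 97.1% and 40.1% in RBPjcKO libraries, against 73.9%, 109% and 49.0% in wild-type libraries. Slc40a1 reached 26.1%, 59.4% and 31.7% in RBPjcKO libraries, against 49.2%, 96.5% and 64.0% in wild-type libraries. Both were highest on this scale in replicate 2 of each genotype, where C1q was lowest.

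With the log2 summed C1q level as a covariate, which leaves 3 residual degrees of freedom, 8 of the 32 genes were called lower, against 5.04% of all genes. They were Emr1 (log2 fold change -1.08), Slc40a1 (-1.20), Mertk (-1.11), Vsig4 (-0.81), Cd163 (-1.30), Mpeg1 (-0.62), Csf1r (-0.72) and Aif1 (-1.01). Their edgeR adjusted p lay between 0.00876 for Mertk and 0.0386 for Aif1. The shares of all genes given for the covariate fits are not a matched background either. Most genes do not vary with C1q between libraries as the listed genes do. Sirpa was called higher (0.79, edgeR adjusted p = 0.0317), against 6.13% of all genes, and 23 genes were not called. The number called lower was 4 without RBPjcKO replicate 1, against 1.82% of all genes, and 5 without wild-type replicate 1, against 1.88%. It was 6 without RBPjcKO replicate 2, RBPjcKO replicate 3 or wild-type replicate 3, against 2%, 3.6% and 2.28% of all genes. It was 0 by edgeR without wild-type replicate 2, against 0.0861% of all genes. Of the 6 fits without a library, Emr1, Slc40a1, Mertk and Vsig4 were called in 5, Cd163 in 4, Mpeg1 in 2, and Csf1r and Aif1 in 0. Marco, uncalled with the covariate when all libraries were kept, was called lower in 1 of these fits. Sirpa was called higher in 1 of the 6, with edgeR adjusted p up to 0.14. Clec4f, Cd5l and Timd4 stayed uncalled with the covariate (edgeR adjusted p = 0.104, 0.085 and 0.107).

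**Figure D5:**
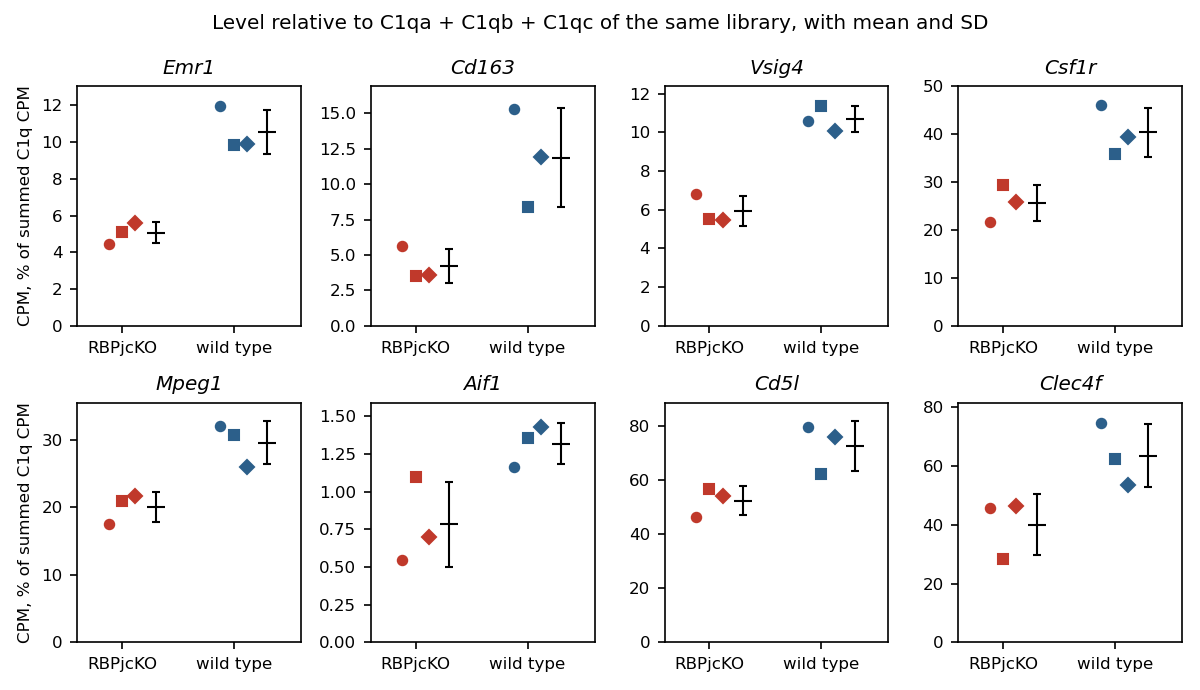
Level of selected genes as a percentage of the summed CPM of C1qa, C1qb and C1qc in the same library, RBPjcKO left of wild type, with mean and SD of 3 libraries. Emr1 lies between 4.47% and 5.61% in RBPjcKO libraries and between 9.86% and 11.9% in wild-type libraries.

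Further genes of resident Kupffer cells were counted from a separate list of 15. Of these, 3 were called lower and 0 higher, with a median log2 fold change of -0.67, against 7.74% called lower across all genes. Fcna, which encodes a ficolin, had 181, 112 and 206 CPM in RBPjcKO cells, against 316, 259 and 306 CPM in wild-type cells (edgeR adjusted p = 0.0402). Itga9, an integrin subunit gene, and Hpgd, which encodes a prostaglandin-degrading enzyme, fell 1.63-fold and 1.59-fold. Itga9 and Hpgd are also expressed by endothelium, by background knowledge. Of 12 myeloid transcription factors 1 was called in each direction. Irf8 had 293, 296 and 299 CPM in RBPjcKO cells, against 184, 133 and 139 CPM in wild-type cells, with edgeR adjusted p = 0.00529. Tfec fell 1.49-fold.

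Signals to Kupffer cells from their niche were 18 genes, of which 4 were called lower and 3 higher, against 7.74% and 9% of all genes. Csf1, the ligand of Csf1r, had 117, 158 and 143 CPM in RBPjcKO cells, against 315, 246 and 339 CPM in wild-type cells. The groups did not overlap, and the log2 fold change was -1.11 (SE 0.16, edgeR adjusted p = 0.00569). Bmp6, a bone morphogenetic protein gene, fell 1.62-fold, while Tgfb1 and Sele, the gene of the adhesion molecule E-selectin, rose 1.59-fold and 6.85-fold. Dll1, a Notch ligand gene, had 55.3, 59.0 and 50.1 CPM in RBPjcKO cells, against 42.3, 34.6 and 30.0 CPM in wild-type cells. It rose 1.54-fold (edgeR adjusted p = 0.0248) and was called in 2 of 6 fits that left out a library. The TAM ligands Gas6 and Pros1 fell by 0.40 and 0.37 on the log2 scale, with edgeR adjusted p = 0.0296 and 0.0344, and each was called in 1 of 6 fits that left out a library. Of 15 genes for the engulfment of dying cells, the 3 called were Mertk, Gas6 and Pros1, all lower, against 7.74% of all genes called lower. These 3 calls were already counted in the lists above, so this list adds none.

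Markers of other cell types moved as well, and their part in these results was not tested. The counts of calls in these lists stand against 7.74% of all genes called lower and 9% called higher. Of 25 genes of the leukocyte and phagocyte core, 1 was called lower and 0 higher. Their summed level was 1226 to 1420.3 CPM in RBPjcKO libraries and 966 to 1299 CPM in wild-type libraries. Of 9 neutrophil genes, 2 were called higher, with a summed level of 509 to 1240.4 CPM in RBPjcKO libraries and 119 to 603 CPM in wild-type libraries. Of 11 monocyte genes 0 were called, with 206 to 369 CPM in RBPjcKO libraries and 149 to 217 CPM in wild-type libraries. Of 9 T and NK cell genes 0 were called, and RBPjcKO replicate 2, the library low for macrophage genes, held 82.6 CPM, against 25.7 to 28.7 CPM in the other RBPjcKO libraries and 67.1 to 76.5 CPM in wild-type libraries. Of 11 hepatocyte genes, 2 were called higher, with 1165 to 3898 CPM in RBPjcKO libraries and 924 to 1776 CPM in wild-type libraries. Of 6 cholangiocyte genes, 3 were called lower, with 80.6 to 119 CPM in RBPjcKO libraries and 185 to 375 CPM in wild-type libraries. Of 13 LSEC genes, 3 were called lower and 0 higher, and the list was divided, with 6 genes below 0 and 7 above. Its median log2 fold change was 0.03. The 3 called LSEC genes, Ehd3, Clec4g and Dnase1l3, fell 2.10-fold, 1.85-fold and 1.80-fold. Of 9 stellate cell and fibroblast genes, 2 were called lower (Reln and Dcn), and the list held 4 genes below 0 and 4 above. Of 5 tested B cell genes, 2 were called higher, and of 6 tested dendritic cell genes, 1 was called higher (Ccr7). Of 8 genes of lipid-associated and recruited macrophages, Spp1 fell 2.76-fold and Fabp5 rose 1.69-fold. Spp1 is also one of the 3 called cholangiocyte genes, with Epcam and Sox9.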

How the data were processed

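RNA of LSECs from 3 RBPjcKO and 3 wild-type libraries was sequenced, and libraries were grouped by the genotype label. Replicates are numbered in sample order, with no pairing. The submitters' processing notes name bcl2fastq, TopHat2 2.0.13 and mm10 (GRCm38). The counting tool, its annotation and its handling of strand are not stated in these sources. Raw read counts per gene, not normalised, make up the deposited table per the file headers. The authors also deposited RPKM, in which the count is divided by gene length and column total.

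The 33353 cDNA clone entries were left out, 23472 named genes were kept, and 27 names turned into dates by a spreadsheet were resolved by Entrez identifier. After filterByExpr (at least 10 counts, and 15 in total) and TMM scaling, edgeR 4.0.16 compared the genotypes (quasi-likelihood F test, Benjamini-Hochberg, threshold 0.05) in R 4.3.3. The SE was approximated by dividing the log2 fold change by the root of the F statistic. The fit was tested on simulated data. Named genes are all 35 listed genes, each library's value being given for called ones and for Kupffer identity genes, then the most abundant of each role group, and up to 4 called genes of each other list. Genes outside that rule were named after their values were seen. Sequences come from RefSeq (GRCm38.p6). The 35 genes and the other lists were chosen with earlier results of these data known. Alternatives were DESeq2 1.42.0, limma 3.58.1 on log2(RPKM + 1), other scalings, filters and thresholds, clones included and each library left out. The C1q covariate was added after the data were seen.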

Additional observations from a re-analysis of the deposited data

How the results depend on the processing

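Under the alternatives run, the median log2 fold change of the 35 genes stayed below 0, from -1.07 to -0.42 without 1 library. With the C1q covariate the median was -0.50 over the 32 genes other than C1q. Of the 14869 genes, 2489 were called, 605 at an adjusted p under 0.01 and 895 with at least a log2 unit of change. Without 1 library, 796 to 1836 genes were called, with 15077 to 15121 tested. Genes of the list called lower numbered 3, against 9 by DESeq2 (where 11.5% of all genes were), 8 with the C1q covariate and 2 to 5 without 1 library. Those called higher numbered 1, and 0 at an adjusted p under 0.01 or with at least a log2 unit of change. With the C1q covariate, 0 to 6 were called lower and 0 to 1 higher without 1 library. By DESeq2 the added calls were Emr1, Cfp, Lyz1, Mpeg1, Csf1r and Ly86. Directions turned for 4 uncalled genes. Without 1 library C1qa ran from -0.857 to 0.015 and C1qb from -0.581 to 0.19, positive without RBPjcKO replicate 2. Tyrobp ran from -0.325 to 0.076, positive there and without wild-type replicate 3 (0.039), and was 0.113 with the C1q covariate. Ptprc ran from -0.186 to 0.03, positive without RBPjcKO replicate 1 and without wild-type replicate 3 (0.027). The cause was not tested. No paired analysis was possible because the labels give the groups no shared replicate numbers. Depth limits Ms4a7 most, with 15 counts in RBPjcKO replicate 2. The summed level of the 35 genes over that of wild type ran from 0.558 to 0.758 without 1 library.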
